A study of Mus musculus with 8 samples.

Results

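The platelet-derived growth factor (PDGF) family was examined in RNA-seq libraries of stromal cells sorted from mouse melanomas. Its 7 members were taken by gene symbol, the ligand genes *Pdgfa*, *Pdgfb*, *Pdgfc* and *Pdgfd*, the receptor genes *Pdgfra* and *Pdgfrb*, and the receptor-like gene *Pdgfrl*, out of 53801 genes in the count table. The tumours were MO5 tumours, grown from the B16 melanoma line made to express ovalbumin, in mice on the C57Bl/6 background that carried ADAM12-GFP, a bacterial artificial chromosome transgene that reports Adam12 expression with GFP and also encodes Cre. Live cells without CD45 or CD31 that stained for PDGFRα and for PDPN (podoplanin, a stromal surface protein) were separated into GFP+ (ADAM12+) and GFP- (ADAM12-) cells, and 4 libraries were made of each group. All cells of both groups had therefore been selected for PDGFRα protein, the product of *Pdgfra*, so the comparison below is between cells on the same side of that gate. The study's methods take n as the number of mice unless stated otherwise, while the labels tie no library to an animal. The p-values therefore set each group difference against the variation between these libraries only. DESeq2, edgeR and limma estimate that variation with information from all genes.

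PDGFs are secreted dimers that bind paired receptor tyrosine kinases at the cell surface. PDGF-A and PDGF-C act mainly through PDGFRα and PDGF-B and PDGF-D mainly through PDGFRβ, and binding starts signalling through phosphatidylinositol 3-kinase, Src kinases, phospholipase C gamma and the Ras to MAP kinase cascade. PDGFRα marks connective tissue fibroblasts and their precursors, PDGFRβ marks fibroblasts and pericytes, and both receptors drive growth and migration of mesenchymal cells in wounds and tumour stroma.

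Total counts per library ran from 883144 in GFP- replicate 3 to 31666734 in GFP+ replicate 4, and 15414 to 24138 genes had a count. Normalised read counts below are raw counts divided by the DESeq2 size factor of the library, and 1 read in GFP- replicate 3 stands for 10.99 normalised counts, against at most 1.39 in any other library. Of 20 fibroblast markers, 12 were higher and 0 lower in GFP+ cells by DESeq2 at an adjusted p under 0.05, and their summed normalised count was 380029 to 813210.4 in GFP- and 930616 to 1091520.0 in GFP+ libraries. All 12 melanocyte markers were lower in GFP+ cells, with sums of 25941 to 76358 in GFP- and 4612 to 12114 in GFP+ libraries, and 4 of 6 tested Schwann cell markers were lower. Of 10 tested pericyte markers 1 was higher (*Abcc9*) and 1 lower (*Mcam*), with sums of 749.6 to 1340.5 in GFP- and 926 to 1593 in GFP+ libraries and *Higd1b* at 0 throughout. Endothelial and leukocyte lists overlapped between the groups in their sums. Of 7 tested endothelial markers *Vwf* was lower in GFP+ cells (121 ± 24.1 against 11.8 ± 11.05, SD, n = 4, DESeq2 adjusted p = 3.77e-05), *Tek*, *Kdr* and *Pecam1* averaged 1309, 505 and 208 normalised counts in GFP- and 1379, 1103 and 261 in GFP+ libraries, and *Tie1* and *Emcn* averaged at most 2.41.

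One family member passed the test. *Pdgfra* was higher in GFP+ cells, and no member was lower at the threshold. Scaling on the fibroblast markers, described with *Pdgfra* below, took *Pdgfa* and *Pdgfc* past it as lower, along with 4813 of 14266 genes over the whole table. Of the 7 members, 6 had a DESeq2 adjusted p, 1 was called higher and 0 lower at an adjusted p under 0.05, and *Pdgfb* was too low for an adjusted p. Over all 15283 genes with an adjusted p, 4.66% were called higher, 4.76% lower and 9.42% in either direction. The edgeR quasi-likelihood test also called 1 member higher and 0 lower, where it called 2.83% of all its genes higher and 2.28% lower. At an unadjusted DESeq2 p under 0.05, *Pdgfrb* also counted as higher and *Pdgfa* as lower, where 10.2% of all tested genes were higher and 10.8% lower. limma voom called 2 members higher and 0 lower, against 4.5% of its genes in each direction. For *Pdgfra*, *Pdgfrb* and *Pdgfa* the groups did not overlap, with the receptors above and the ligand below in GFP+ cells. Over all tested genes 6.37% had every GFP+ library above every GFP- library and 5.95% had every one below.

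**Figure D1:**
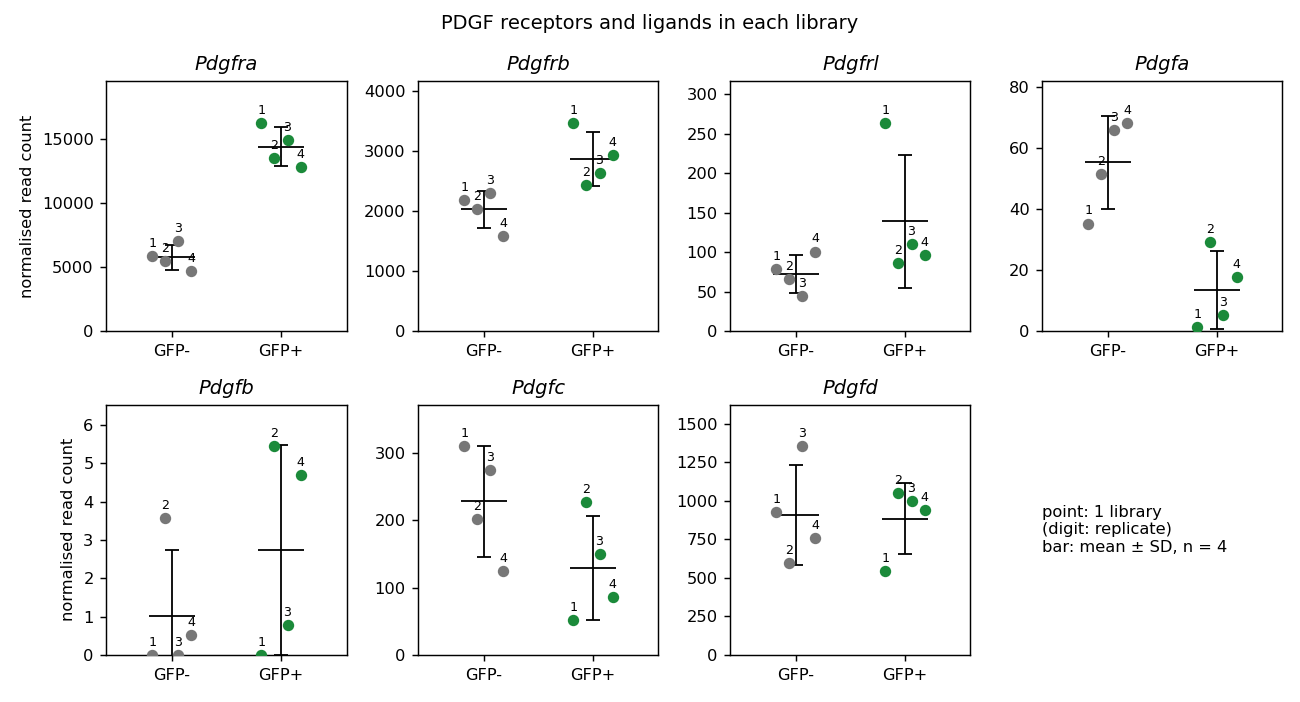
Normalised read count (vertical axis, linear, from 0) of each family member in the 4 GFP- and 4 GFP+ libraries; each point is 1 library with its replicate number, and bars give the mean ± SD. *Pdgfra* runs from 4706 to 7054 in GFP- and from 12812 to 16246 in GFP+ libraries, *Pdgfrb* and *Pdgfa* also separate the groups, and *Pdgfrl*, *Pdgfb*, *Pdgfc* and *Pdgfd* overlap.

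The receptors were examined first. *Pdgfra* (ENSMUSG00000029231), which encodes PDGFRα, lies on the plus strand of chromosome 5 from 75152292 to 75198215 (GRCm38). The 250 bases before its RefSeq start (GRCm38.p6, chr5:75152001-75152250, plus strand) are shown because it is the member that passed the test. The same window before *Pdgfd* (chr9:6168236-6168485, plus strand), which encodes PDGF-D, is shown for contrast, since *Pdgfd* was the most abundant ligand transcript and did not pass the test. Capitals mark the 1 match found, TATAAA.
Pdgfra: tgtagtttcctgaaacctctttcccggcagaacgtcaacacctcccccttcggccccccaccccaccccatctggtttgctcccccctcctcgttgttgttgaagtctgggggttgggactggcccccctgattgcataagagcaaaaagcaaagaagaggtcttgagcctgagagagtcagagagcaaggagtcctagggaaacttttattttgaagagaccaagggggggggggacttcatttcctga
Pdgfd: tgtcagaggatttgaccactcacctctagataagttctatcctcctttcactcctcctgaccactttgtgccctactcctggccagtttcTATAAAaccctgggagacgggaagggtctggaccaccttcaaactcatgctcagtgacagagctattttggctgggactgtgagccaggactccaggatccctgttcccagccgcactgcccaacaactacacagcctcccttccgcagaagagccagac
RefSeq windows matched 4 of the 7 members, and *Pdgfb*, *Pdgfrb* and *Pdgfrl* are without an entry. Both strands were searched for GGGCGG (bound by Sp1 and related factors), TGANTCA (the AP-1 motif), CCAAT and TATAAA, which do not overlap one another. *Pdgfra* and *Pdgfc* held none of these letters, *Pdgfd* held TATAAA at -160, and the windows before both starts of *Pdgfa*, which overlap exons of other annotated *Pdgfa* transcripts and so are not only upstream sequence, held GGGCGG. The RefSeq starts of *Pdgfra* and *Pdgfd* lie upstream of their GENCODE gene starts (75152292 and 6168584), so the position -160 counts from the RefSeq start only. Of 32851 windows of the same length 32.7% held GGGCGG, 6.75% TGANTCA, 33.8% CCAAT and 12.4% TATAAA.

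The normalised read counts of *Pdgfra* were 5851, 5485, 7054 and 4706 in GFP- replicates 1 to 4 and 16246, 13509, 14915 and 12812 in GFP+ replicates 1 to 4. These came from 642 reads in the shallowest library to 38189 in the deepest. Every GFP+ library lay above every GFP- library, with a gap wider than the spread within either group. The GFP- mean was 5774 ± 978 and the GFP+ mean 14371 ± 1526 (SD, n = 4). On the log2 scale the change was 1.32 ± 0.17 (SE), or 2.50 times with a 95% interval of 1.99 to 3.13 times, and the DESeq2 adjusted p was 1.93e-12. The edgeR adjusted p was 0.00105 and the limma voom adjusted p 7.4e-05. *Pdgfra* kept its direction and stayed past the threshold in all 18 other settings tried, and with each library left out in turn the log2 fold change ran from 1.24 to 1.42. Scaling the libraries on the 20 fibroblast markers, which moved the median of all genes from -0.0082 to -0.79 (log2), reduced it to 0.56 ± 0.22 (SE; DESeq2 adjusted p = 0.0377).

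*Pdgfra* drew more reads than most genes, by normalised counts that are not corrected for length (its merged exons hold 10024 bases). Of 15283 tested genes, 86 had a larger mean normalised count, and of the 712 genes called higher 42 did. By size of change it stood lower, since 248 of the genes called higher had a larger log2 fold change, while 13 had a smaller adjusted p. *Kit*, a receptor tyrosine kinase gene of the same class and the next protein-coding gene at higher coordinates, 376701 bases away, was higher by DESeq2 (86.6 ± 63.5 against 385 ± 268, SD, n = 4, adjusted p = 0.0095) with overlapping groups and an edgeR adjusted p of 0.0669. Its neighbour on the other side, *Gsx2*, had 1 read in all. *Pdpn*, the other gene whose protein was used in the gate, rose by 0.70 on the log2 scale (DESeq2 adjusted p = 0.0134). The melanocyte transcripts that were lower in GFP+ libraries and the fibroblast transcripts that were higher moved with *Pdgfra*, and their part in its difference was not tested. In bulk samples, fewer cells of a type and less RNA per cell cannot be told apart.

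*Pdgfrb* (ENSMUSG00000024620, plus strand of chromosome 18, 61045150 to 61085061) encodes PDGFRβ. Its normalised read counts were 2188, 2039, 2296 and 1592 in GFP- replicates 1 to 4 and 3469, 2433, 2639 and 2927 in GFP+ replicates 1 to 4. The groups did not overlap, but the gap between GFP- replicate 3 and GFP+ replicate 2 was small beside the spread within the groups. The means were 2029 ± 310 and 2867 ± 450 (SD, n = 4). The log2 fold change of 0.51 ± 0.18 (SE; 95% interval 0.14 to 0.87) had a DESeq2 adjusted p of 0.0613 and an edgeR adjusted p of 0.106, short of the threshold. Of the 18 other settings 5 took it past the threshold, among them limma voom with an adjusted p of 0.042 and DESeq2 with TMM factors with 0.0204. Without GFP- replicate 3 the DESeq2 adjusted p was 0.0394. Scaled on the fibroblast markers, its direction turned to a log2 fold change of -0.24 (DESeq2 adjusted p = 0.386), where the median of all genes was -0.79. Pericytes also carry PDGFRβ. Of their 10 tested markers, *Abcc9* moved with *Pdgfrb* (275 ± 162 against 589 ± 167, SD, n = 4, DESeq2 adjusted p = 0.0493, edgeR adjusted p = 0.0975, overlapping groups), *Mcam* was lower (222 ± 57.0 against 73.4 ± 28.04, DESeq2 adjusted p = 0.000593), and the other 8 did not pass the test. The part of pericyte transcripts in the *Pdgfrb* values was not tested. Its neighbour *Csf1r*, which encodes the colony stimulating factor 1 receptor and lies 15537 bases away, had 220 ± 214 and 152 ± 98.7 normalised counts (SD, n = 4; DESeq2 adjusted p = 0.754).

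The transcripts of both receptors were therefore compared with each other within each library, which does not depend on the scaling between libraries. The ratio of *Pdgfra* to *Pdgfrb* normalised counts was 2.67, 2.69, 3.07 and 2.96 in GFP- replicates 1 to 4 and 4.68, 5.55, 5.65 and 4.38 in GFP+ replicates 1 to 4. All 4 GFP+ values exceeded all 4 GFP- values. The mean ratio was 2.85 ± 0.198 for GFP- and 5.07 ± 0.633 for GFP+ cells (SD, n = 4). The log2 ratio differed by 0.82, a 1.77-fold change, with p = 0.0286 in a two-sided exact permutation test over the 70 divisions of the libraries, the smallest p that 4 against 4 can give. The receptor transcripts thus changed to an unequal extent, and the ratio does not show that either one was constant.

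**Figure D2:**
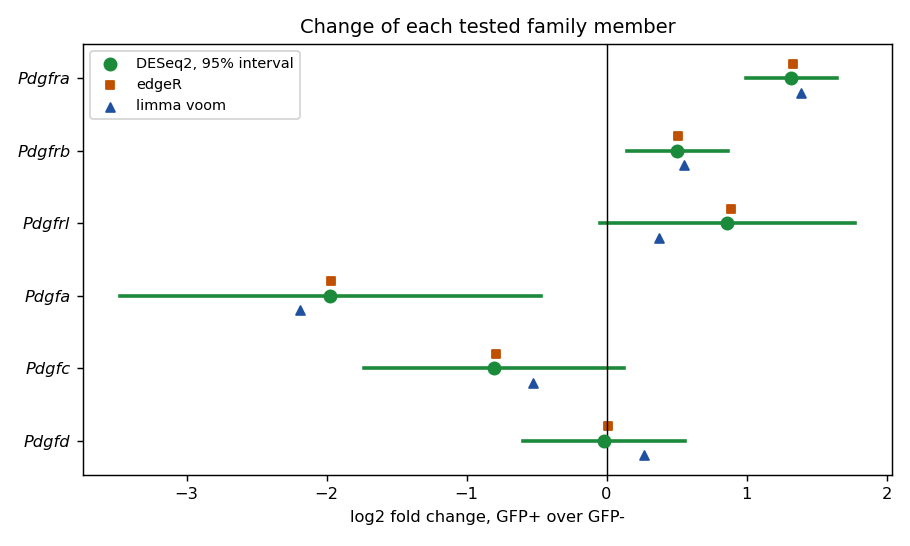
Log2 fold change of GFP+ over GFP- (horizontal axis) for the 6 members with an adjusted p; circles and lines give DESeq2 estimates with 95% intervals, squares edgeR and triangles limma voom. The *Pdgfra* interval, 0.99 to 1.65, lies farthest above 0, the *Pdgfa* interval, -3.48 to -0.47, lies below 0, and those of *Pdgfrl*, *Pdgfc* and *Pdgfd* cross it.

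*Pdgfrl* (ENSMUSG00000031595, plus strand of chromosome 8, 40926212 to 40990785) encodes a secreted protein with sequence similarity to the ligand-binding part of the PDGF receptors and no kinase. Normalised read counts were 78.7, 66.6, 43.9 and 101 in GFP- replicates 1 to 4 and 264, 85.8, 110 and 96.6 in GFP+ replicates 1 to 4, and the value in GFP- replicate 3 rests on 4 reads. GFP+ replicate 1 stood well above the other 3 of its group, of which replicates 2 and 4 lay within the GFP- range and replicate 3 just above it. The means were 72.5 ± 23.7 and 139 ± 83.8 (SD, n = 4). The change of 0.86 ± 0.47 on the log2 scale (SE; 95% interval -0.05 to 1.78) had a DESeq2 adjusted p of 0.276, and without GFP+ replicate 1 it was 0.35. *Mtus1*, a gene of the opposite strand that ends 129 bases from *Pdgfrl*, was higher in GFP+ cells without overlap (164 ± 78.9 against 418 ± 96.6, SD, n = 4, DESeq2 adjusted p = 0.00273, edgeR adjusted p = 0.0325). The reads had been assigned by strand, and how many of those at this locus lay on the wrong strand was not measured.

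The ligands were examined next. *Pdgfa* (ENSMUSG00000025856, minus strand of chromosome 5, 138976014 to 138997370) encodes PDGF-A, the ligand of PDGFRα homodimers. Normalised read counts were 35.3, 51.6, 65.9 and 68.3 in GFP- replicates 1 to 4 and 1.39, 29.3, 5.38 and 17.8 in GFP+ replicates 1 to 4. Every GFP+ library lay below every GFP- library, with GFP+ replicate 2 nearest to the GFP- values. Read numbers were low, with 1 read in GFP+ replicate 1, 7 in GFP+ replicate 3 and 6 in GFP- replicate 3. The means were 55.3 ± 15.2 and 13.5 ± 12.7 (SD, n = 4). The log2 fold change was -1.97 ± 0.77 (SE; 95% interval -3.48 to -0.47), and it did not pass the threshold with a DESeq2 adjusted p of 0.0854 or an edgeR adjusted p of 0.261. Without GFP+ replicate 2 the log2 fold change was -2.65 and the DESeq2 adjusted p 0.0212, and scaled on the fibroblast markers they were -2.72 and 0.00563. Melanocyte transcripts took 0.267% of counts in the GFP- library where they were fewest and 0.114% in the GFP+ library where they were most, and they were lower in GFP+ libraries as *Pdgfa* was. Their part in the *Pdgfa* values was not tested. An annotated antisense gene that overlaps *Pdgfa*, 6330403L08Rik, had 4.33 ± 4.76 and 4.18 ± 3.79 normalised counts (SD, n = 4).

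*Pdgfc* (ENSMUSG00000028019, plus strand of chromosome 3, 81036416 to 81214040) encodes PDGF-C, a ligand released from its CUB domain by proteases before it can bind PDGFRα. Its normalised read counts were 309, 202, 275 and 124 in GFP- replicates 1 to 4 and 51.4, 226, 150 and 86.2 in GFP+ replicates 1 to 4. Groups overlapped, since GFP+ replicate 2 exceeded 2 of the GFP- libraries. Means were 228 ± 82.0 and 128 ± 76.9 (SD, n = 4), and the log2 fold change of -0.80 ± 0.47 (SE; 95% interval -1.73 to 0.13) had a DESeq2 adjusted p of 0.337. Scaled on the fibroblast markers, the change was -1.46 and passed the test (DESeq2 adjusted p = 0.013), in a fit that called 4813 of 14266 genes lower. Its neighbour at lower coordinates, *Glrb*, which encodes a glycine receptor subunit, was lower in GFP+ cells (294 ± 192 against 53.9 ± 33.1, SD, n = 4, DESeq2 adjusted p = 0.000494) with overlapping groups.

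*Pdgfd* (ENSMUSG00000032006, plus strand of chromosome 9, 6168584 to 6378850) encodes PDGF-D, which is activated in the same way and binds PDGFRβ. Normalised read counts were 929, 593, 1351 and 759 in GFP- replicates 1 to 4 and 544, 1049, 996 and 942 in GFP+ replicates 1 to 4. The highest and the lowest value came from the GFP- replicate 3 and GFP+ replicate 1 libraries, and the groups overlapped over most of their range. Means were 908 ± 326 and 883 ± 230.0 (SD, n = 4). The change on the log2 scale was -0.02 ± 0.30 (SE; DESeq2 adjusted p = 0.986), and its 95% interval of -0.60 to 0.56 leaves room for changes of either sign. *Pdgfd* had 123 reads in the shallowest library and 2809 in the deepest. *Casp12*, the neighbour at lower coordinates, was higher in GFP+ cells (302 ± 91.7 against 635 ± 217, SD, n = 4, DESeq2 adjusted p = 0.0133).

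*Pdgfb* (ENSMUSG00000000489, minus strand of chromosome 15, 79995874 to 80014977), which encodes PDGF-B, the ligand that recruits pericytes when endothelial cells and platelets release it, was close to the limit of detection. It had 0, 5, 0 and 1 reads in GFP- replicates 1 to 4 and 0, 13, 1 and 14 reads in GFP+ replicates 1 to 4. In normalised counts these were 0, 3.58, 0 and 0.525 against 0, 5.44, 0.768 and 4.70. The deeper libraries held most of the reads. A count of 0 allows up to 3 reads, or 4.07 and 33.0 normalised counts in GFP- replicates 1 and 3 and 4.17 in GFP+ replicate 1, counting error only. A difference between the groups was not detectable at this depth. Of 3 tested platelet markers, *Itga2b* was higher in GFP+ cells by DESeq2 (adjusted p = 0.0207, edgeR adjusted p = 0.116, overlapping groups), *Pf4* and *Gp1bb* had log2 fold changes of -1.35 and -0.38 and did not pass the test, and *Gp9* was at 0 in all libraries. The list summed to 21.7 to 286 normalised counts in GFP- and 98.6 to 254 in GFP+ libraries, most of it *Itga2b* in GFP+ cells (171 of a mean of 195), and its part in the *Pdgfb* values was not tested.

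Levels were then set against each other as normalised counts per kilobase of merged exon. In GFP- libraries the order was *Pdgfra* (576 ± 97.5 per kilobase, SD, n = 4), *Pdgfrb* (370 ± 56.6), *Pdgfd* (288 ± 103), *Pdgfc* (44.7 ± 16.1), *Pdgfrl* (23.2 ± 7.60), *Pdgfa* (17.7 ± 4.88) and *Pdgfb* (0.247 ± 0.414). *Pdgfrb* and *Pdgfd*, *Pdgfc* and *Pdgfrl*, and *Pdgfrl* and *Pdgfa* overlapped in range in these libraries, while *Pdgfra* exceeded *Pdgfrb* and *Pdgfd* exceeded *Pdgfc* in every library. In GFP+ libraries the levels per kilobase were 1434 ± 152 for *Pdgfra*, 523 ± 82.1 for *Pdgfrb*, 279.97 ± 72.9 for *Pdgfd*, 44.5 ± 26.8 for *Pdgfrl*, 25.2 ± 15.1 for *Pdgfc*, 4.32 ± 4.06 for *Pdgfa* and 0.655 ± 0.658 for *Pdgfb* (SD, n = 4). There, *Pdgfrl* and *Pdgfc* overlapped, as did *Pdgfa* and *Pdgfb*, and each other member exceeded the next one in range. So in both groups the order began with both receptors, followed by *Pdgfd*, and ended with *Pdgfa* and *Pdgfb*. The order was the same with the longest transcript as length, with counts per total scaled by TMM and with each library left out.

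*Pdgfd* made up most of the ligand transcripts in every library. Its share of the summed ligand level per kilobase was 80.3%, 76.7%, 85.1% and 83.8% in GFP- replicates 1 to 4 and 94.2%, 85.8%, 91.0% and 92.6% in GFP+ replicates 1 to 4. It was lower in every GFP- library than in any GFP+ library, by a small margin between GFP- replicate 3 and GFP+ replicate 2. That GFP- library held 6 reads of *Pdgfa* and 25 of *Pdgfc*, and no ligand passed the reported DESeq2 test. *Pdgfc* held 13.0% ± 4.01 of the ligand level in GFP- and 7.68% ± 2.92 in GFP+ libraries (SD, n = 4), and *Pdgfa* held 5.41% ± 2.13 and 1.23% ± 1.04. These shares describe the make-up of the ligand transcripts and say nothing of the amount of ligand protein. The summed receptor level per kilobase, *Pdgfra* with *Pdgfrb*, was 2.68, 3.75, 2.23 and 2.65 times the summed ligand level in GFP- replicates 1 to 4 and 12.3, 4.62, 5.67 and 5.62 times in GFP+ replicates 1 to 4. GFP+ replicate 1 was the highest, and it also had the lowest *Pdgfa*, *Pdgfc* and *Pdgfd* values of all libraries.

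**Figure D3:**
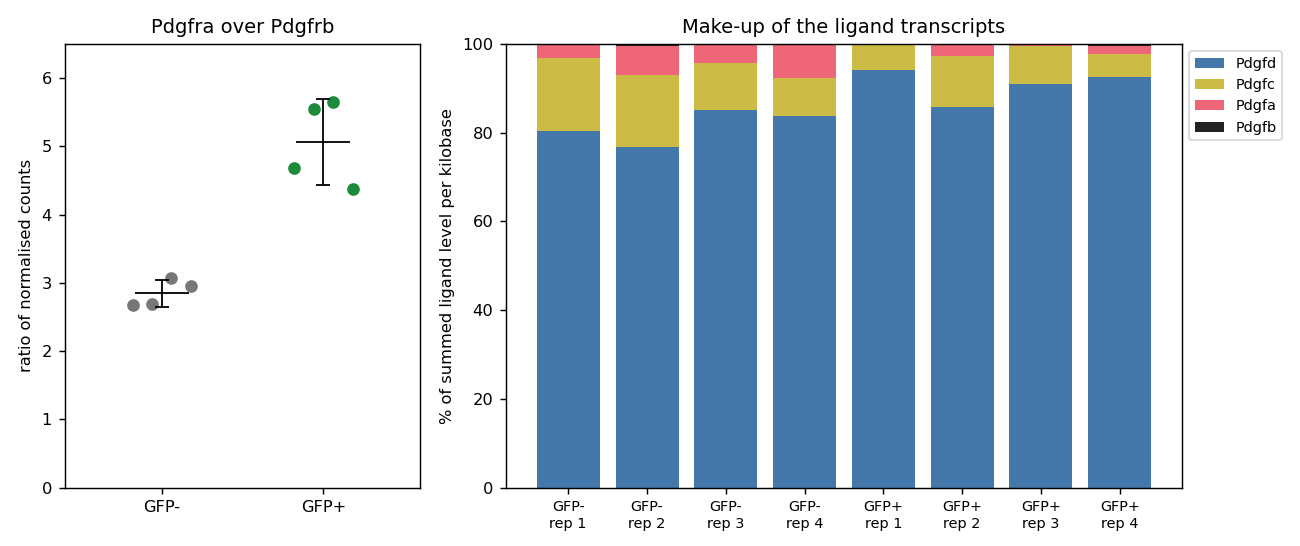
Left, ratio of *Pdgfra* to *Pdgfrb* normalised counts (vertical axis) in each library, with mean ± SD bars over 4 libraries; right, share of the summed ligand level per kilobase (vertical axis, %) held by each ligand transcript in each library. The ratio is 2.67 to 3.07 in GFP- and 4.38 to 5.65 in GFP+ libraries, and *Pdgfd* holds 76.7% or more of the ligand level in each library.

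Profiles over the 8 libraries were compared to find the transcripts that varied most like each member averaging at least 100 normalised counts. Likeness was the root mean square difference between centred log2 profiles, over 8811 other genes. Nearest to *Pdgfra* were *Adam23* (distance 0.0921), *Ccdc80* (0.0999), *Ly6a* (0.130), *Ifi205* (0.131) and *Slfn5* (0.137), against a median distance of 0.769 over all genes searched. *Ly6a* encodes the stem cell antigen Sca-1, found on fibroblast precursors, and *Ccdc80* an extracellular matrix protein. Nearest to *Pdgfrb* were *Rhoj* (0.0883), *Ahnak* (0.102), *Tshz3* (0.103), *Ripor1* (0.106) and *Hook3* (0.107), with a median of 0.486. *Pdgfd* was nearest to *Bcl2l11* (0.123), *Arhgap28*, *Fam13b*, *Otud5* and *Magi3* (0.167), with a median of 0.582. *Pdgfrl* had *Phf11b* (0.223), *Fbxo4*, *Naf1*, *Pex7* and *Mrpl50* (0.268), and *Pdgfc* had *Adam8* (0.313), *Lrrc42*, *Tes*, *Ufsp2* and *Tada2a* (0.384), at larger distances against medians of 0.761 and 0.916. Among the members compared, which leaves out *Pdgfa* and *Pdgfb*, *Pdgfra* and *Pdgfrb* were the closest pair (0.432) and *Pdgfc* and *Pdgfrl* the farthest apart (1.45). All distances come from the same 8 libraries, and they are descriptions of these libraries only.

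Other genes with a role in or near the pathway were grouped into 6 lists, with 97 of 98 genes tested. Of these 97, 25 were called higher (25.8%) and 6 lower (6.19%) by DESeq2. Their median log2 fold change was 0.20, against -0.0082 over all tested genes, of which 4.66% were called higher and 4.76% lower. The lists were chosen with earlier results of these data known, so these shares are descriptions and no test. Of the 25, 11 were early genes that growth factors induce and 5 were genes for related ligands and receptors. Neither of those lists holds parts of the PDGF pathway itself. Scaled on the fibroblast markers, 2 of the listed genes were called higher and 33 lower, where 96 of all 14266 tested genes were higher and 4813 lower. With this scaling *Pcsk5*, *Nrp1*, *Lrp1*, *Thbs1*, *Sparc*, *Spry1*, *Csf1* and *Kitl* no longer passed the DESeq2 test, and *Shc1*, *Pik3r1*, *Socs3* and *Vegfa* turned negative. Among 7 proteases that process PDGF precursors or free PDGF-C and PDGF-D, *Pcsk5*, a proprotein convertase, was called higher (1349 ± 294 against 2593 ± 620, SD, n = 4, log2 fold change 0.95, DESeq2 adjusted p = 0.00111). *Plat* and *Plau*, which encode the plasminogen activators that cleave PDGF-C and PDGF-D, had log2 fold changes of 0.37 and 0.19 and did not pass the test. *Furin*, another convertase, had 0.38. The median of this list was 0.37.

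Of 7 genes for PDGF-binding proteins and co-receptors, 4 were called higher and 1 lower, with a median of 0.71. *Nrp1*, which encodes a co-receptor for PDGFs, VEGFs and semaphorins, went from 1366 ± 215 to 2620.4 ± 350 normalised counts (SD, n = 4), up by 0.95 on the log2 scale (DESeq2 adjusted p = 1.71e-05). Its paralog *Nrp2* changed the other way, from 1899 ± 507 to 432 ± 197 (SD, n = 4), and fell by 2.14 on the log2 scale (DESeq2 adjusted p = 2.18e-08). Within the GFP- libraries *Nrp2* was lowest in replicate 3 (1253) and highest in replicate 4 (2488), as was the sum of the melanocyte markers (25941 and 76358), which fell with it in GFP+ libraries, and their part in its difference was not tested. *Lrp1*, whose product binds PDGFRβ and takes up many ligands, rose by 0.86 on the log2 scale (DESeq2 adjusted p = 5.04e-05) and *Thbs1*, thrombospondin 1, by 1.08 (0.00199). *Sparc*, which encodes a matrix protein that binds PDGF, was the other gene called higher and was named after its values were seen, with an adjusted p of 0.041 by DESeq2 and 0.0906 by edgeR. *Cspg4*, which encodes the pericyte proteoglycan NG2, had 61.1 and 61.6 normalised counts on average.

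Of 35 genes for adaptors and effectors of the receptors, 2 were called higher, 3 lower and 30 neither, with a median of 0.00. Over all tested genes 4.66% were called higher and 4.76% lower, shares to be read beside this list and the next. *Pik3r1*, the regulatory subunit of phosphatidylinositol 3-kinase that docks on both receptors, was higher (log2 fold change 0.73, DESeq2 adjusted p = 0.000942), as was the adaptor gene *Shc1* (0.64, 0.0292). The catalytic subunit gene *Pik3cb* (-1.88, DESeq2 adjusted p = 0.00217), the kinase gene *Akt1* (-0.65, 0.00309) and *Src* (-0.71, 0.0056) were lower. edgeR called 1 gene of this list higher and 1 lower, and *Shc1* (edgeR adjusted p = 0.0986), *Pik3cb* (0.0631) and *Src* (0.0745) missed its threshold. Within the GFP- libraries *Src* was lowest in replicate 3 (407) and highest in replicate 4 (664), as was the melanocyte sum, and *Akt1* was also lowest in replicate 3 (2022 against 2791 to 3002), while *Pik3cb* was highest there (187). The part of the melanocyte markers, lower in GFP+ libraries, in these 3 differences was not tested. The *Src* call was lost without GFP- replicate 2 (DESeq2 adjusted p = 0.0707), GFP- replicate 4 (0.0756) or GFP+ replicate 2 (0.0517). *Shc1* missed the threshold in 11 of the 18 other settings, edgeR included, and changed sign in 1 more. Of 16 genes for receptor phosphatases, ubiquitin ligases and feedback inhibitors, 2 were called higher, *Socs3* and *Spry1*, and 2 lower. *Dusp6*, a phosphatase of ERK, fell by 1.69 on the log2 scale (DESeq2 adjusted p = 0.000271) with overlapping groups. Its lowest GFP- value, 231 against 608 to 851 in the others, was in replicate 3, where the melanocyte sum was also lowest, and their part was not tested. *Ptprj*, which dephosphorylates PDGF receptors, fell by 0.70 (0.0232). edgeR kept 1 call in each direction, without *Ptprj* (edgeR adjusted p = 0.0616) and *Spry1* (0.0956), which also missed the threshold in 8 and 10 of the 18 other settings. The feedback inhibitors *Spry2* and *Spry4* had log2 fold changes of 0.67 and 0.96 with DESeq2 adjusted p-values of 0.0725 and 0.0732.

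Of 18 early genes that growth factors induce, 11 were called higher and 0 lower by DESeq2 and 8 and 0 by edgeR, with a median of 0.67, and 0 were lower at an unadjusted DESeq2 p under 0.05. *Fos* went from 12511 ± 775 to 20365 ± 933 normalised counts (SD, n = 4), up by 0.70 on the log2 scale (DESeq2 adjusted p = 3.75e-08). *Cxcl1*, a neutrophil chemokine gene, rose by 1.12 on the log2 scale (DESeq2 adjusted p = 2.2e-07), and *Fosb*, *Jun*, *Egr1*, *Junb*, *Egr2*, *Has2*, *Myc*, *Fosl1* and *Nr4a1* by 0.52 to 1.11. Their induction is not particular to PDGFs. Scaled on the fibroblast markers, 0 of the 18 were called higher, where 96 of 14266 genes were and the median of all genes was -0.79. *Fos*, *Fosl1*, *Jun*, *Junb*, *Myc*, *Egr1* and *Nr4a1* turned to small negative values, all above that median.

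Of 14 tested genes for related ligands and receptors, DESeq2 called 5 higher and 0 lower. At an unadjusted p under 0.05 *Vegfb* and *Pgf* counted as lower by DESeq2, and limma voom called *Vegfb* lower. *Vegfd*, the gene of a VEGF with a domain shared with the PDGFs, went from 790 ± 397 to 2739 ± 527 normalised counts (SD, n = 4), up by 1.82 on the log2 scale (DESeq2 adjusted p = 4.05e-06). *Csf1* and *Kitl*, the ligand genes of *Csf1r* and *Kit*, had log2 fold changes of 1.28 (DESeq2 adjusted p = 7.8e-05) and 1.04 (0.00142). Scaled on the fibroblast markers, these were 0.53 (DESeq2 adjusted p = 0.087) and 0.31 (0.445), short of the threshold, where the median of all genes was -0.79. *Vegfa* (0.57, DESeq2 adjusted p = 0.0386) and *Kit* were the others, and edgeR called 3 of the list, without *Vegfa* (edgeR adjusted p = 0.0804) and *Kit*. *Kdr*, *Flt1* and *Flt4*, the VEGF receptor genes, did not pass the test. With each of the 8 libraries left out in turn, the DESeq2 calls of *Sparc*, *Shc1* and *Vegfa* were lost in 5 fits, those of *Spry1*, *Fosl1*, *Myc*, *Nr4a1*, *Kit* and *Ptprj* in 4 and those of *Has2* and *Src* in 3, with adjusted p-values of 0.0501 to 0.189, and each library ended at least 1 of these calls.

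**Figure D4:**
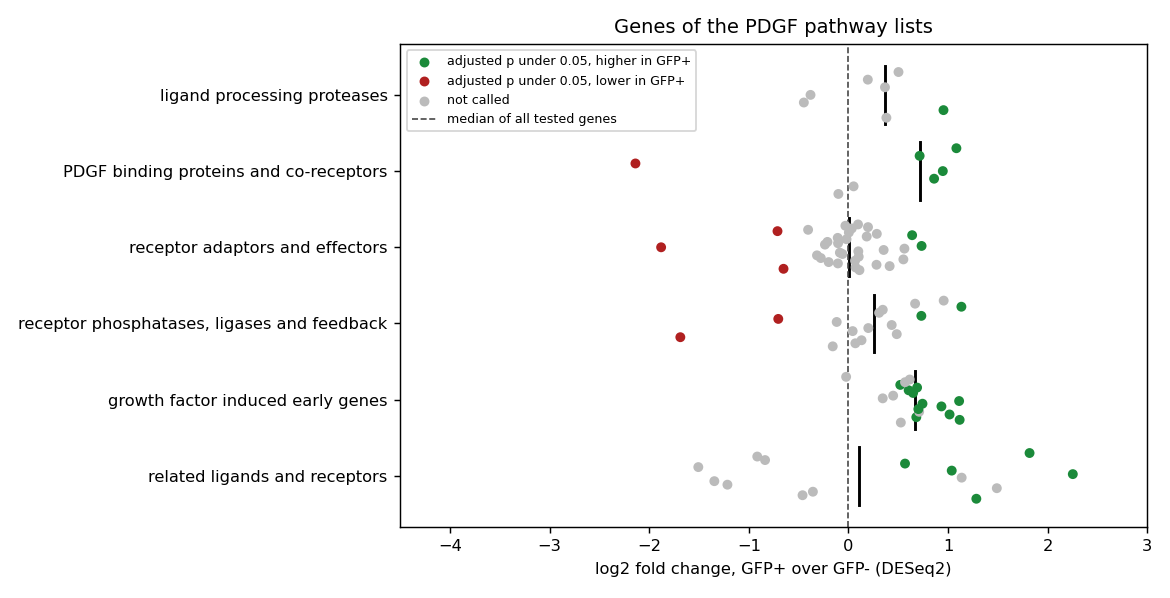
Log2 fold change of GFP+ over GFP- (horizontal axis, DESeq2) of each tested gene in the 6 pathway lists; green and red points passed an adjusted p under 0.05, grey points did not, vertical bars are list medians and the dashed line is the median of all tested genes. The early genes are shifted to the right, with 11 of 18 called higher, and *Nrp2* is the leftmost called gene.

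**Figure D5:**
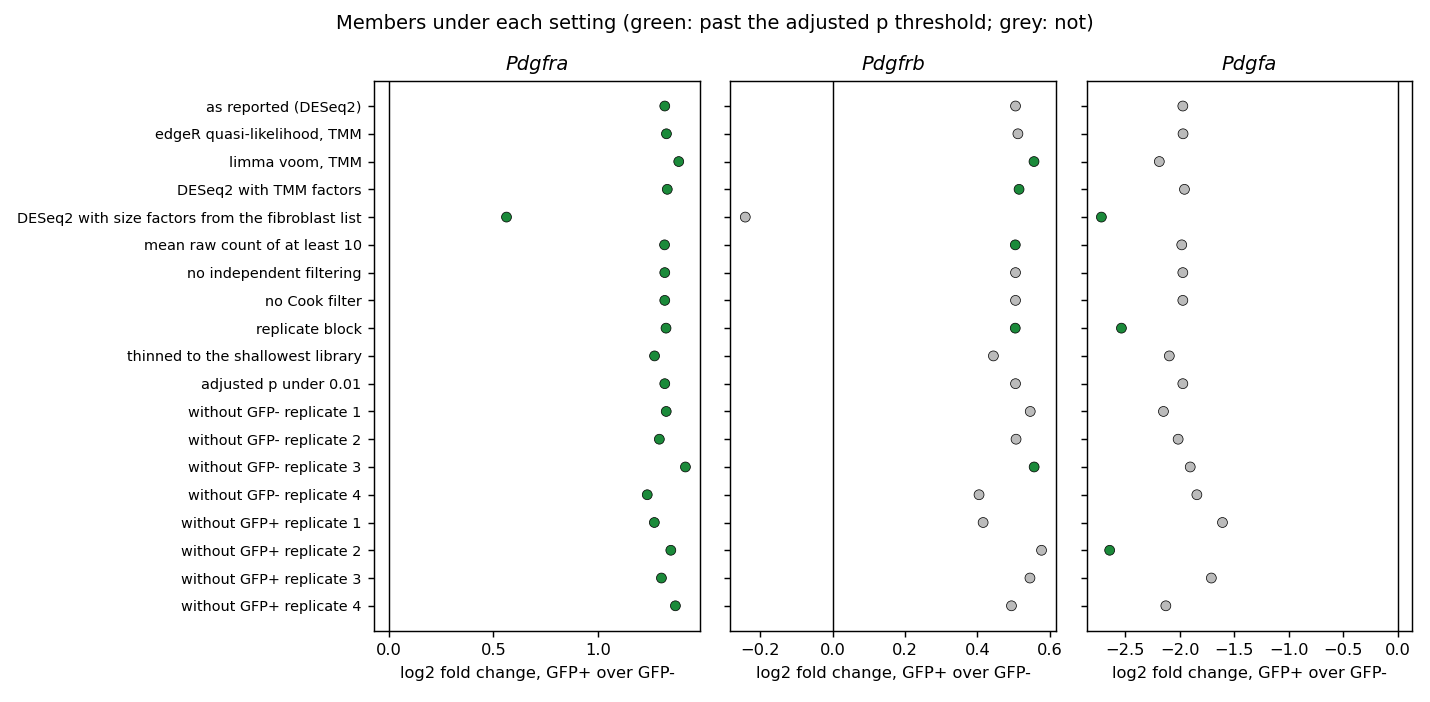
Log2 fold change of *Pdgfra*, *Pdgfrb* and *Pdgfa* (horizontal axes) in the reported fit and under 18 other settings (rows); green points passed the adjusted p threshold and grey points did not. *Pdgfra* passed in every setting, at 0.56 to 1.42, *Pdgfrb* passed in 5 other settings and *Pdgfa* in 3.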

How the data were processed

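The authors trimmed reads of stranded total RNA libraries for small inputs with cutadapt 3.4, mapped them to GRCm38 with STAR 2.7.3a and assigned them by strand to Ensembl genes with featureCounts 2.0.1. The deposited table holds whole-number raw read counts, from which all values here start, and the authors' normalised score, the count divided by the DESeq2 size factor and rounded. The authors' fold changes and p-values in it were not used. Per-sample columns left unused: 0.

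In R 4.3.3, the 29043 genes with a count were fitted with DESeq2 1.42.0, with group as the only term, a two-sided Wald test, independent filtering, the Cook filter and Benjamini-Hochberg adjustment over all genes, and called at an adjusted p under 0.05. Independent filtering left 13443 genes and the Cook filter 317 without an adjusted p. The size factors matched those of the deposited normalised columns. The edgeR 4.0.16 quasi-likelihood test and limma 3.58.1 voom used TMM factors. The code was tested on simulated data. The receptor ratio was compared by an exact permutation test.

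Gene coordinates and exon lengths came from GENCODE M21 and promoters from RefSeq (GRCm38.p6). Groups and replicate numbers came from the sample titles. Replicates of a group differed beyond sampling noise in every pair (chi-square per degree of freedom 9.68 to 72.96). Reads carried no molecular identifiers in the counting, so floors cover counting error only. The members, gene lists and tests were chosen with earlier results of these data known. Genes named were the 7 members, up to 30 called pathway genes with the smallest adjusted p, the nearest protein-coding neighbours, and for members averaging at least 100 normalised counts the 5 genes nearest in profile (log2 of the normalised count plus 1). Other genes were named after their values were seen.

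Alternatives were edgeR, limma voom, TMM factors, size factors from the 20 fibroblast markers, leaving out either the Cook filter or independent filtering, only genes averaging 10 raw counts or more, the replicate number as a block, thinning to the shallowest library, an adjusted p under 0.01, each library left out, and for the ratio pseudocounts of 1 and 10.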

Additional observations from a re-analysis of the deposited data

Results flagged for a closer look

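Among 76 groups of 4 libraries, over 37 genes (the members and the named pathway genes) and the *Pdgfra* to *Pdgfrb* ratio, 4 held a library whose gap to the nearest other was large for the range of its group by Dixon's criterion, which chance meets in about 1 group of 20. *Pdgfrl* was one, with a normalised count of 264 in GFP+ replicate 1 and 110 in the nearest GFP+ library. *Pdgfb* was another, at 3.58 in GFP- replicate 2 and 0.525 in the next library, which are 5 reads and 1 read. *Thbs1* had 5233 normalised counts in GFP- replicate 4 and 11990.3 in the nearest GFP- library. *Vegfa* had 1897 in the same library, against 2610.0 in the nearest. GFP- replicate 4 also had the highest melanocyte sum, 76358 normalised counts, and the lowest fibroblast sum, 380029, and their part in the low values was not tested.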

How the results depend on the processing

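*Pdgfra* kept its direction and its side of the threshold in all 18 alternatives. The members called higher rose from 1 to 2, with *Pdgfrb* added, under limma voom (adjusted p 0.042), TMM factors in DESeq2 (0.0204), only genes averaging 10 raw counts or more (0.0461) and without GFP- replicate 3 (0.0394). *Pdgfa* was called lower, making 1 member, without GFP+ replicate 2, so the members called lower ran from 0 to 1 with a library left out and those called higher from 1 to 2. The *Pdgfd* log2 fold change turned positive under edgeR (0.0075), limma voom (0.27), TMM factors (0.0091) and with GFP- replicate 1 left out (0.0047), as well as without GFP- replicate 3 (0.21) and without the first GFP+ library (0.18), and it passed no test.

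Size factors from the fibroblast list, 12 of whose 20 genes were called higher, moved the median of all genes to -0.79, so that changes are to be read against it. The called genes became 96 higher and 4813 lower, 1.96% of calls higher against 49.5% in the reported fit, the pathway lists 2 higher and 33 lower, and 2 members were called lower, *Pdgfa* (log2 fold change -2.72) and *Pdgfc* (-1.46). There *Pdgfrb* (-0.24), *Pdgfrl* (-0.011), *Shc1* (-0.13), *Pik3r1* (-0.046), *Socs3* (-0.094), *Fos* (-0.055), *Fosl1* (-0.058), *Jun* (-0.11), *Junb* (-0.18), *Myc* (-0.13), *Egr1* (-0.092), *Nr4a1* (-0.29) and *Vegfa* (-0.18) changed sign.

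Over all genes, calls were 405 higher and 327 lower with edgeR, 423 and 384 after thinning, 419 and 425 at an adjusted p under 0.01, and 460 to 937 higher and 469 to 900 lower with a library left out. The pathway genes called lower were 3 with edgeR, against 6, and those called higher were also fewer, as among the early genes (8 against 11).

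Same-numbered libraries of the groups deviated from their group means with correlations of 0.0503, -0.158, -0.122 and 0.262 over 8812 genes. Number 4 was the only one whose libraries each correlated best with their own number. The labels do not say whether same-numbered libraries came from the same tumours. These correlations cannot decide it, since GFP- replicate 3 held only 883144 counts, and the reported fit did not treat the numbers as pairs. With the replicate block DESeq2 called 755 genes higher and 737 lower, 2 members higher, *Pdgfra* and *Pdgfrb* (adjusted p 0.0485), and 1 lower, *Pdgfa* (-2.54, adjusted p 0.0356). For the receptor ratio the sign-flip exact test over replicate numbers gave p = 0.125, the smallest that 4 pairs allow, for the same log2 difference of 0.82, which was 0.77 to 0.89 with a library left out.

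Depth limits *Pdgfa*, *Pdgfb* and *Pdgfrl* most, since GFP- replicate 3 held 6, 0 and 4 reads of them.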
